A study of Drosophila melanogaster with 6 samples.

Results

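Cytochrome P450 genes encode heme-thiolate monooxygenases, which insert oxygen into steroids, fatty acids and foreign compounds. In insects they fall into the mitochondrial, CYP2, CYP3 and CYP4 clans: the mitochondrial and CYP2 clans include the enzymes of ecdysteroid synthesis, and the CYP3 and CYP4 clans include most genes tied to insecticide and plant toxin metabolism. The fly midgut, Malpighian tubule and fat body are known sites of their expression. Members were chosen by symbol alone, as rows named Cyp followed by a family number, subfamily letters and a gene number, which leaves out the cyclophilins. This gave 85 of 17806 named genes, of which 40 belong to the CYP3 clan, 32 to CYP4, 9 to the mitochondrial clan and 4 to CYP2, by family number. Of the 85, 2 are pseudogenes (Cyp6a15Psi and Cyp6t2Psi). P450 genes under other symbols, such as shd, fall outside the rule and are not in the family and clan counts and sums.

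RNA came from GFP-positive intestinal progenitors, the stem cells of the fly gut and their undifferentiated daughters, sorted from adult female Drosophila melanogaster. The genotypes were Patr1 and esgTS, with 3 libraries each, every library from the guts of 100 flies held at 29 °C for 6 days. The label esgTS is the usual short name of a temperature-sensitive driver system active in esg-expressing progenitors, and Patr-1 encodes a decapping activator of P-bodies, the cytoplasmic granules of repressed and decaying mRNA. The labels give no alleles, transgenes or strain background for either genotype, do not say how Patr-1 was altered, and do not say whether the replicates were separate experiments, so p-values measure the spread between these libraries.

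Each library held 2035676 to 2958607 reads on named genes. Levels are given as library-scaled counts (CPM, with TMM factors), and fold changes are Patr1 over esgTS from edgeR's quasi-likelihood test with Benjamini-Hochberg adjustment over all 7927 genes tested, called at an adjusted p under 0.05. The Patr-1 transcript itself stood at 35.7, 32.4 and 39.1 CPM in Patr1 replicates 1, 2 and 3, against 205.8, 221.9 and 229.6 CPM in the esgTS replicates (log2 -2.62 ± 0.10 SE, edgeR adjusted p = 1.56e-09). Markers of the labelled cells were abundant, with esg at 642 ± 82.3 CPM in Patr1 and 654 ± 41.8 CPM in esgTS (SD, n = 3 each).

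Summed over all members, the P450 genes took a smaller share of the reads in Patr1. Their levels summed to 702, 701 and 626 CPM in Patr1 replicates 1, 2 and 3, against 1005, 902 and 1022 CPM in the esgTS replicates. All 3 Patr1 libraries lay below all 3 esgTS libraries, and the ratio of the means was 0.692. In bulk samples, fewer cells of a type and less RNA per cell cannot be told apart. The sum rested on few genes: the 5 most abundant members held 50.5% to 51.9% of it in the Patr1 libraries and 51.3% to 53.3% in the esgTS libraries.

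Most P450 genes were scarce in these cells. Of the 85 members, 11 had 0 reads in all 6 libraries, where 3 reads, the upper limit that a count of 0 allows, correspond to 0.99 to 1.51 CPM per library and cover counting error only. Another 42 had reads but fell below the expression filter, which asks for about 3.65 CPM in 3 libraries, and 32 were tested. Of these 32, 6 were higher in Patr1, 15 were lower and 11 did not pass. Over all genes tested, 25.5% were called higher and 23.9% lower, 49.4% in all. All 3 Patr1 libraries lay above all 3 esgTS libraries in 6 of the 32 members and below them in 15, where 29.6% and 27.7% of all tested genes did so. The filter shapes these counts. Among the 32, 22 reached the level in all 3 libraries of both genotypes (4 higher, 11 lower), 3 in Patr1 only (Cyp6a22 and Cyp12a5, both higher, and Cyp9b2), 5 in esgTS only (Cyp6w1, Cyp6a20, Cyp317a1 and Cyp49a1, all lower, and Cyp6t1) and 2 in a mixture of libraries. Genes that enter through 1 genotype are picked in part for being higher there, so the counts describe the members and are not evidence of a family-wide shift. The median fitted log2 change of the 32 was -0.47, beside 0.01 over all tested genes, and it ranged from -0.49 to -0.30 when 1 library was left out.

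The changes that were called were often large. A fitted change of more than 4-fold was seen in 9 tested members, 4 higher and 5 lower, whereas 5.16% of all tested genes changed that much. Tested P450 genes had a median level of 15.5 CPM, below the 54.3 CPM of all tested genes, and 4 of the 9 entered the test through 1 genotype only.

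**Figure D1:**
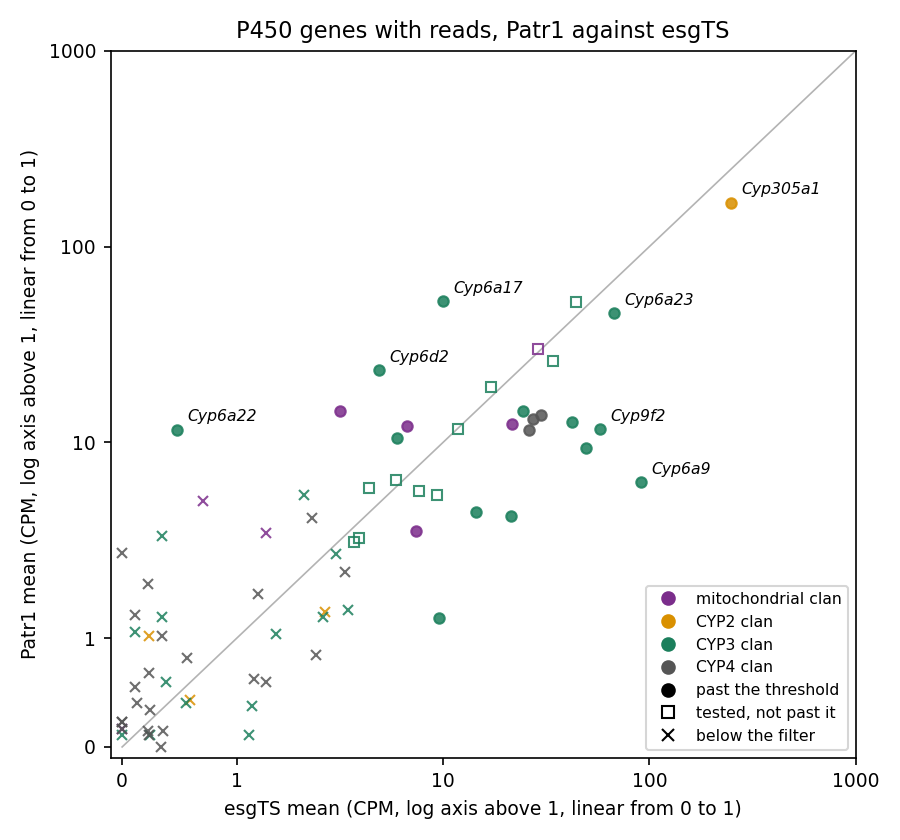
Mean level of each P450 gene with reads in Patr1 (vertical axis) and in esgTS (horizontal axis), in CPM on axes that are logarithmic above 1 and linear from 0 to 1; each symbol is 1 gene (mean of 3 libraries), coloured by clan, and the line marks equal levels. Cyp6a22, Cyp6a17 and Cyp6d2 lie far above the line and Cyp6a9 and Cyp9f2 far below it, while most genes below the expression filter sit under 5 CPM in both genotypes.

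Per unit of transcript length, 1 gene stood above the others. Cyp305a1, the only CYP2 clan member that passed the filter, had 95.1, 88.8 and 94.9 length-scaled CPM (RPKM, CPM per kilobase) in Patr1 replicates 1, 2 and 3, against 138, 134 and 142 RPKM in the esgTS replicates, the highest level of the 32 tested members in both genotypes. On the CPM scale it stood at 171.4, 159.85 and 171 in the Patr1 libraries and at 248.8, 241 and 255 in the esgTS libraries, with no overlap between the genotypes (log2 -0.57 ± 0.08 SE, edgeR adjusted p = 5.57e-05). It held 22.8% to 27.3% of the summed P450 level in every library. Behind it the order of RPKM levels was reshuffled. In Patr1 the next ranks were held by Cyp6a17 (30.4 RPKM), Cyp6d4 (27.8) and Cyp6a23 (25.9), and in esgTS by Cyp6a9 (46.2), Cyp6a23 (38.1) and Cyp9f2 (32.7). Neighbours in either order overlapped in their library values. For Cyp6d4 the Patr1 libraries held 51.8, 48.1 and 56.3 CPM and the esgTS libraries 40.9, 41.7 and 49.96 CPM, which overlap (log2 0.23 ± 0.12 SE, edgeR adjusted p = 0.128).

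The CYP3 clan, home of the Cyp6, Cyp9 and Cyp28 families, holds 23 of the 32 tested members: 4 were higher, 9 were lower and 10 did not pass, beside 25.5% higher and 23.9% lower over all tested genes. The largest fall in fold was that of Cyp6a9, with 6.03, 5.79 and 7.03 CPM in Patr1 replicates 1, 2 and 3, against 94.2, 74.4 and 103 CPM in the esgTS replicates (14.4-fold lower, log2 -3.84 ± 0.19 SE, edgeR adjusted p = 1.32e-08). It was the second P450 by RPKM in esgTS and 24th among the 32 in Patr1. About 20.2% of its exon bases overlap the neighbouring Cyp6a19, which had 8 reads in Patr1 and 13 reads in esgTS.

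Cyp6v1 fell to 10.6, 6.82 and 10.5 CPM in Patr1, against 49.1, 43.0 and 55.3 CPM in esgTS (log2 -2.43 ± 0.19 SE, edgeR adjusted p = 8.98e-07). The adjacent genes Cyp9f2 and Cyp9f3 fell together. Cyp9f2 stood at 8.54, 11.3 and 15.4 CPM in Patr1 and at 56.4, 51.6 and 64.4 CPM in esgTS (log2 -2.28 ± 0.18 SE, edgeR adjusted p = 9.42e-07). Cyp9f3 stood at 13.6, 11.6 and 12.75 CPM in Patr1 and at 46.4, 39.7 and 40.0 CPM in esgTS (log2 -1.74 ± 0.16 SE, edgeR adjusted p = 3.04e-06). In all 3 genes every Patr1 library lay far below every esgTS library.

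Cyp6w1, which has been tied to DDT resistance, had 3.02, 1.70 and 7.91 CPM in Patr1, against 18.2, 21.5 and 24.4 CPM in esgTS (log2 -2.38 ± 0.38 SE, edgeR adjusted p = 2.69e-04). Without Patr1 replicate 3 its log2 change was -3.22. Cyp6a20, known for its effect on male aggression, had 0, 2.04 and 1.76 CPM in Patr1, against 8.93, 8.27 and 11.4 CPM in esgTS (log2 -2.75 ± 0.49 SE, edgeR adjusted p = 5.74e-04). Neither reached the filter level in all Patr1 libraries, and their Patr1 values rest on 29 reads for Cyp6w1 and 10 for Cyp6a20. The other lowered members of the clan were Cyp317a1 (log2 -1.69), Cyp310a1 (log2 -0.78) and Cyp6a23 (log2 -0.55). Of the exon bases of Cyp317a1, 32.6% lie in Kank, whose own transcript fell to 78.8 CPM in Patr1, against 205.6 CPM in esgTS (log2 -1.38); reads of the overlapping part cannot be assigned to either gene with certainty.

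Cyp6a17 and Cyp6d2 had the strongest support among the rises in the CYP3 clan. Cyp6a17, known for its part in the temperature preference of adult flies, had 55.8, 59.6 and 42.2 CPM in Patr1 replicates 1, 2 and 3, against 7.22, 12.9 and 9.91 CPM in the esgTS replicates (log2 2.39 ± 0.21 SE, edgeR adjusted p = 1.99e-06). It ranked second of the 32 by RPKM in Patr1 and 18th in esgTS. Cyp6d2 had 24.1, 26.6 and 19.3 CPM in Patr1, against 4.81, 4.96 and 4.96 CPM in esgTS (log2 2.24 ± 0.24 SE, edgeR adjusted p = 1.05e-05). About 51% of its exon bases lie in nsr, which held 1 read in each genotype over 3 libraries.

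Cyp6a22 was almost absent from the esgTS libraries. It had 11.6, 16.7 and 6.59 CPM in Patr1 and 0.34, 0.33 and 0.76 CPM in esgTS, from 87 reads in Patr1 and 4 in esgTS (log2 4.53 ± 0.55 SE, edgeR adjusted p = 2.80e-05). Cyp28d2 had 11.6, 10.2 and 9.67 CPM in Patr1, against 6.53, 5.29 and 6.10 CPM in esgTS (log2 0.80 ± 0.26 SE, edgeR adjusted p = 0.0232). The groups did not overlap for either gene, but the call for Cyp28d2 was lost with DESeq2 (adjusted p = 0.145) and when any of Patr1 replicates 1 and 2 and esgTS replicates 2 and 3 was left out (edgeR adjusted p = 0.0533 to 0.0946).

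**Figure D2:**
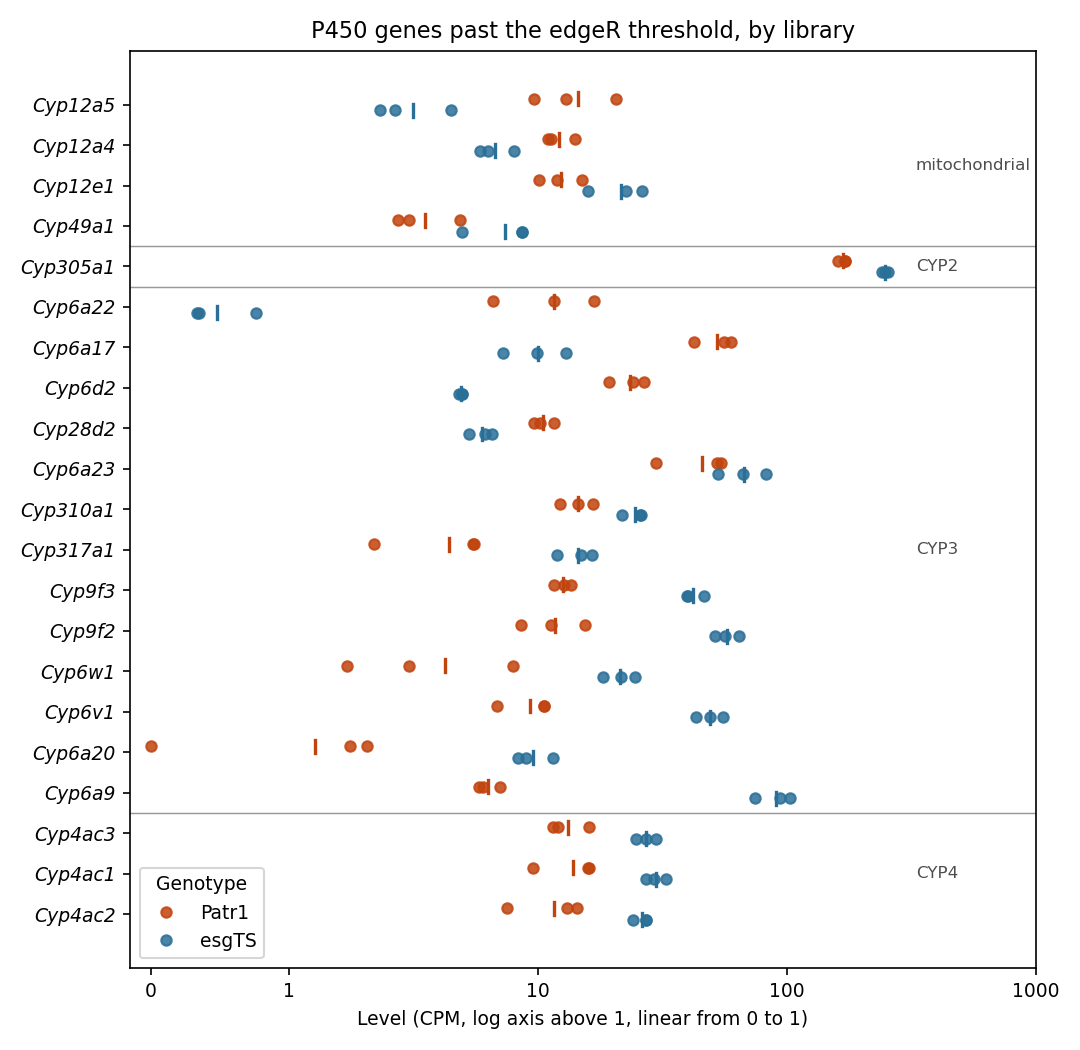
Level of each called P450 gene in every library, in CPM on an axis that is logarithmic above 1 and linear from 0 to 1; points are libraries, short bars are means of 3, and genes are ordered by fold change within each clan. The genotypes are apart for every gene shown except Cyp6a23, whose Patr1 libraries reach 54.3 CPM and whose esgTS libraries start at 52.9 CPM.

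The 10 tested CYP3 clan genes that did not pass include well-studied detoxification enzymes. Cyp6g1, whose overexpression gives flies resistance to DDT and neonicotinoids, averaged 3.11 ± 0.62 CPM in Patr1 and 3.71 ± 0.58 CPM in esgTS (SD, n = 3 each, edgeR adjusted p = 0.648). Cyp6a2, another gene linked to insecticide resistance, averaged 6.45 ± 1.599 CPM in Patr1 and 5.92 ± 1.51 CPM in esgTS (edgeR adjusted p = 0.733). A p that misses the threshold does not show that their levels were equal. Cyp6t1 was lower in all 3 Patr1 libraries than in any esgTS library but narrowly missed the threshold (log2 -0.76, edgeR adjusted p = 0.0521). The others were Cyp6a13, Cyp6d4, Cyp6d5, Cyp6u1, Cyp9b1, Cyp9b2 and the pseudogene Cyp6t2Psi, with fitted log2 changes between -0.38 and 0.42.

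Neighbouring P450 genes did not always move alike. In the RefSeq annotation 47 of the 85 members lie in 17 runs of 2 or more, with at most 1 other gene between them. Only the Cyp4ac, Cyp9b, Cyp9f and Cyp12a runs and the longest run held at least 2 tested members. In 4 of these, all but the Cyp9b run, at least 2 members were called, where 49.4% of all tested genes were called. The 3 Cyp4ac genes fell together, as did Cyp9f2 and Cyp9f3, and Cyp12a4 and Cyp12a5 rose together. The longest run, 8 Cyp6a genes and Cyp317a1, was the only one with calls in both directions: Cyp6a22 and Cyp6a17 at one end were higher, while Cyp6a23, Cyp6a9, Cyp6a20 and Cyp317a1 were lower.

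The border between higher and lower genes falls between the close paralogs Cyp6a17 and Cyp6a23. Cyp6a23 had 54.3, 52.5 and 29.9 CPM in Patr1 replicates 1, 2 and 3, against 82.1, 52.9 and 66.3 CPM in the esgTS replicates (log2 -0.55 ± 0.20 SE, edgeR adjusted p = 0.0375). Its groups overlapped, and the call was lost without Patr1 replicate 3 or esgTS replicate 1 or 3 (edgeR adjusted p = 0.0609 to 0.155). Of the reads on the pair, Cyp6a17 took 50.7%, 53.2% and 58.5% in the Patr1 libraries, against 8.08%, 19.6% and 13.0% in the esgTS libraries. The 95% Wilson intervals, which cover counting error only, ran from 44.1% to 65.8% over the Patr1 libraries and from 5.34% to 25.7% over the esgTS libraries. Together the pair summed to 110.0, 112 and 72.1 CPM in Patr1 and to 89.4, 65.8 and 76.3 CPM in esgTS, which overlap. The sources used here do not say how reads that match both paralogs were counted.

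Over the whole run, the shares of Cyp6a9 and Cyp6a17 did not overlap between the genotypes. Cyp6a9 took 4.49%, 4.01% and 7.80% of the run's reads in Patr1 replicates 1, 2 and 3, against 44.4%, 45.5% and 49.4% in the esgTS replicates. Cyp6a17 took 41.6%, 41.3% and 46.8% in Patr1, against 3.4%, 7.89% and 4.74% in esgTS. Cyp6a23 took 40.4%, 36.3% and 33.2% in Patr1, against 38.7%, 32.4% and 31.7% in esgTS. The 95% Wilson intervals of Cyp6a17 and Cyp6a23 overlapped in Patr1 replicates 1 and 2, and those of Cyp6a9 and Cyp6a23 in esgTS replicate 1, so which gene led was within counting error there. The run held 205 to 424 reads per Patr1 library and 494 to 617 per esgTS library. Cyp6a8, whose enzyme hydroxylates lauric acid, had 1 read in Patr1 and 0 in esgTS, and Cyp6a21 had 1 read in Patr1 and 10 in esgTS.

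**Figure D3:**
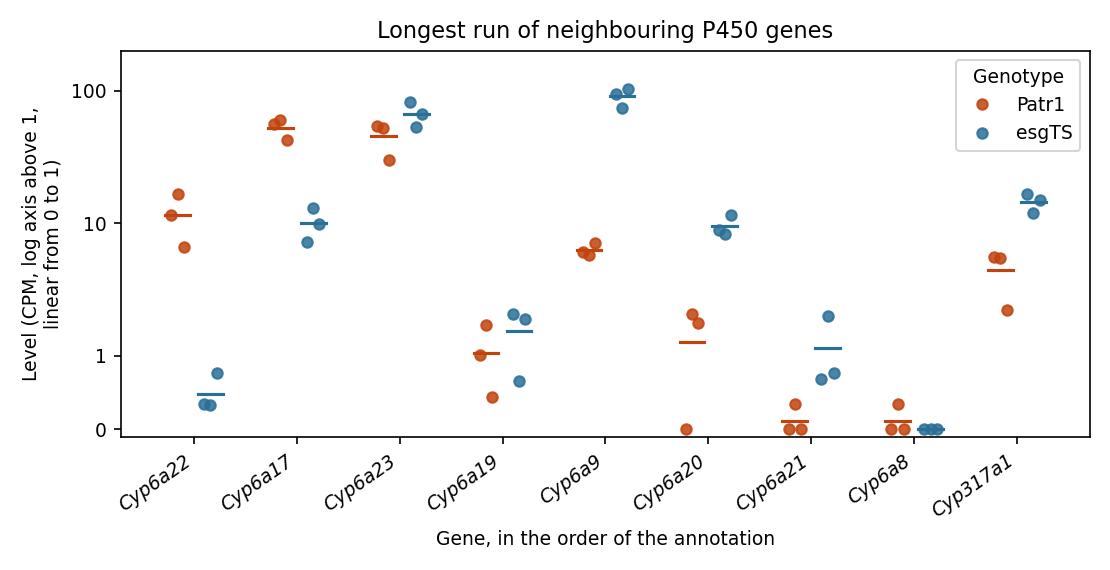
Level of the 9 genes of the longest run in every library, in CPM on an axis that is logarithmic above 1 and linear from 0 to 1, in the order of the annotation; points are libraries and bars are means of 3. The Patr1 points are higher for the first 2 genes and lower for Cyp6a9, Cyp6a20, Cyp6a21 and Cyp317a1, while those of Cyp6a23 and Cyp6a19 overlap with the esgTS points.

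The CYP4 clan had the smallest share of members past the filter, 3 of 32. These were Cyp4ac1, Cyp4ac2 and Cyp4ac3, which are neighbours, and all 3 were lower, where 23.9% of all tested genes were. Fitted with no expression filter, the clan had 3 genes higher and 3 lower. Cyp4ac1 had 9.55, 16.02 and 15.8 CPM in Patr1, against 29.2, 27.1 and 32.8 CPM in esgTS (log2 -1.08 ± 0.20 SE, edgeR adjusted p = 9.23e-04). Cyp4ac2 had 13.1, 14.3 and 7.47 CPM in Patr1, against 27.2, 24.2 and 27.1 CPM in esgTS (log2 -1.15 ± 0.23 SE, edgeR adjusted p = 0.00118). Cyp4ac3 had 12.1, 16.02 and 11.4 CPM in Patr1, against 27.2, 29.8 and 24.8 CPM in esgTS (log2 -1.03 ± 0.19 SE, edgeR adjusted p = 8.73e-04). The genotypes were apart for all 3 genes, and they are paralogs that may share reads.

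Among the members chosen by symbol, the mitochondrial clan was the only one whose summed levels overlapped between the genotypes. Of its 9 members, 5 were tested, 2 of them higher and 2 lower, beside 25.5% higher and 23.9% lower over all tested genes. These counts and the sum leave out shd, a mitochondrial P450 under another symbol, which was higher in Patr1 and is given below. Cyp12a5 had 20.6, 12.9 and 9.67 CPM in Patr1 replicates 1, 2 and 3, against 4.47, 2.32 and 2.67 CPM in the esgTS replicates (log2 2.16 ± 0.37 SE, edgeR adjusted p = 4.70e-04). Its neighbour Cyp12a4, which gives resistance to the insect growth regulator lufenuron when overexpressed, had 14.1, 11.3 and 11.0 CPM in Patr1, against 5.84, 6.28 and 8.01 CPM in esgTS (log2 0.84 ± 0.26 SE, edgeR adjusted p = 0.0183). The rise of Cyp12a4 did not pass with DESeq2 (adjusted p = 0.101) or without Patr1 replicate 1 or esgTS replicate 1 or 2 (edgeR adjusted p = 0.0616 to 0.0755).

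Cyp12e1 had 15.1, 11.9 and 10.1 CPM in Patr1, against 26.1, 15.9 and 22.5 CPM in esgTS (log2 -0.80 ± 0.24 SE, edgeR adjusted p = 0.0158). Cyp49a1 had 3.02, 2.73 and 4.83 CPM in Patr1, against 8.59, 8.60 and 4.96 CPM in esgTS (log2 -1.08 ± 0.36 SE, edgeR adjusted p = 0.0264). Both falls were marginal. That of Cyp12e1 was lost without Patr1 replicate 2 or 3 or esgTS replicate 1 (edgeR adjusted p = 0.0511 to 0.0758). That of Cyp49a1 was lost with DESeq2 (adjusted p = 0.127) and when any of Patr1 replicates 1 and 2 and esgTS replicates 1 and 2 was left out (edgeR adjusted p = 0.0623 to 0.123). Cyp12b2, the clan's highest tested member by RPKM, averaged 29.8 ± 5.09 CPM in Patr1 and 29.0 ± 3.07 CPM in esgTS (SD, n = 3 each, edgeR adjusted p = 0.821).

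Summed over all members, 3 of the clans were lower in Patr1. The CYP3 clan summed to 366 ± 33.8 CPM in Patr1 and 557 ± 54.2 CPM in esgTS (SD, n = 3 each). The CYP2 clan, almost wholly Cyp305a1, summed to 170.2 ± 5.74 CPM in Patr1 and 252 ± 7.25 CPM in esgTS, and the CYP4 clan to 59.4 ± 6.70 CPM in Patr1 and 98.1 ± 1.24 CPM in esgTS. The mitochondrial clan summed to 80.8 ± 10.8 CPM in Patr1 and 69.8 ± 5.20 CPM in esgTS. Differences between clans were not tested.

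**Figure D4:**
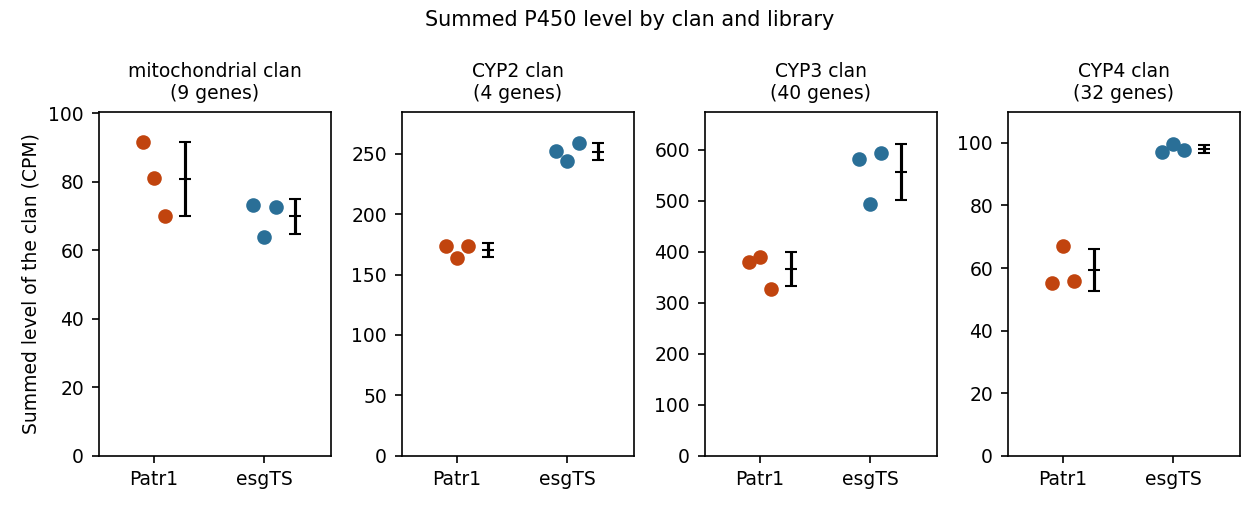
Summed level of each P450 clan in every library, in CPM on linear axes that start at 0 and differ between panels; points are libraries and the black bars show mean ± SD of 3. The Patr1 points lie below the esgTS points in the CYP2, CYP3 and CYP4 clans, while in the mitochondrial clan they run from 69.9 to 91.5 CPM and overlap with the esgTS points at 63.8 to 73.2 CPM.

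The 42 members with reads that missed the filter comprise 22 CYP4, 14 CYP3, 3 CYP2 and 3 mitochondrial genes, and 20 of them held 10 reads or fewer over all 6 libraries. Fitted with no expression filter, the P450 genes gave 12 rises and 15 falls in place of 6 and 15, and the 6 added genes were all rises. Over all 13665 genes in that fit, 33.6% were called, with 2411 rises and 2174 falls in place of 2018 and 1896. Cyp4s3 was counted 19 times in Patr1 and 0 times in esgTS, and the exact 95% interval of its ratio, for counting error only, starts at 5.55. Of its exon bases, 20.1% lie in Rab3-GEF, which had 32 reads in Patr1 and 19 in esgTS. Cyp28a5 was counted 24 times in Patr1 and 3 times in esgTS (Patr1 over esgTS 9.51, interval 2.89 to 49.3). The mitochondrial Cyp12c1 was counted 35 times in Patr1 and 6 times in esgTS (Patr1 over esgTS 6.93, interval 2.89 to 20.2).

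The remaining additions were Cyp4d21, Cyp4p2 and Cyp28d1, the last of which has been tied to nicotine tolerance. Cyp4d21 was counted 14 times in Patr1 and 2 times in esgTS (Patr1 over esgTS 8.32, interval 1.91 to 75.4). Cyp4p2 was counted 10 times in Patr1 and once, as 1 read, in esgTS (Patr1 over esgTS 11.9, interval 1.69 to 516). Cyp28d1 was counted 41 times in Patr1 and 18 times in esgTS (Patr1 over esgTS 2.71, interval 1.52 to 5.01). The edgeR adjusted p-values of the 6 genes without a filter ran from 2.90e-05 (Cyp4s3) to 0.0307 (Cyp4p2).

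Several members with known physiological roles were scarce in both genotypes. Cyp4g1, the oenocyte enzyme that makes cuticular hydrocarbons, had 29 reads in Patr1 and 20 in esgTS. Cyp18a1, which inactivates ecdysteroids, had 8 reads in Patr1 and 2 in esgTS, and Cyp301a1, needed for the adult cuticle, had 26 in Patr1 and 12 in esgTS. Cyp303a1, needed for sensory bristles, had 10 reads in Patr1 and 23 in esgTS, of which some may belong to heix, with which it shares 33% of its exon bases. These are a few reads per library, and none of the 4 genes was called without a filter.

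Cyp6t3, which acts in ecdysone synthesis in the larval prothoracic gland, had 19 reads in Patr1 and 26 in esgTS, and Cyp311a1, described in the anterior midgut, had 4 in Patr1 and 10 in esgTS. The other untested genes with at least 3 reads in some library were spread over the CYP3 and CYP4 clans. In the CYP3 clan, Cyp6g2 had 10 reads in Patr1 and 30 in esgTS, Cyp6a14 had 8 in Patr1 and 22 in esgTS, and Cyp309a1 had 10 in Patr1 and 3 in esgTS. Cyp6a18, Cyp6a15Psi, Cyp9h1, Cyp28c1, Cyp6a19 and Cyp6a21 had 1 to 8 reads in Patr1 and 1 to 13 in esgTS. In the CYP4 clan, Cyp313a1 had 16 reads in Patr1 and 29 in esgTS, and Cyp4e2 had 6 in Patr1 and 21 in esgTS. Cyp4d1, Cyp4d8, Cyp4d20, Cyp4p1, Cyp4ad1, Cyp313b1 and Cyp316a1 had 3 to 12 reads in Patr1 and 1 to 12 in esgTS. Of the paired Cyp12d1 copies, induced by many xenobiotics, Cyp12d1-p had 1 read in Patr1 and 0 in esgTS, and Cyp12d1-d had 0 reads in both.

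Of 5 tested genes for proteins that feed electrons to P450 enzymes, 0 were called higher and 1 was lower. Over all tested genes 25.5% were higher and 23.9% lower, so these counts show nothing particular to the list. The lower gene was dare, the adrenodoxin reductase of the mitochondrial enzymes, at 14.6, 17.7 and 16.3 CPM in Patr1 and 27.1, 21.8 and 27.1 CPM in esgTS (log2 -0.63 ± 0.18 SE, edgeR adjusted p = 0.0125). Cpr, the reductase that serves the microsomal clans, averaged 139 ± 9.76 CPM in Patr1 and 148 ± 13.1 CPM in esgTS (SD, n = 3 each, edgeR adjusted p = 0.417). Fdx1 (edgeR adjusted p = 0.693), the other ferredoxin Fdx2 (log2 0.35, edgeR adjusted p = 0.056) and Cyt-b5 (log2 0.18, edgeR adjusted p = 0.079) did not pass either, though the Cyt-b5 libraries of Patr1 all lay above those of esgTS.

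Of 9 tested genes of the synthesis and breakdown of heme, the P450 cofactor, 3 were higher (FeCH, Updo and Pbgs), 1 was lower (Alas) and 5 did not pass, with a median log2 change of 0.11. Beside the 49.4% called over all tested genes, these counts show nothing particular to the list. FeCH, the ferrochelatase that inserts iron in the last step, had 150.2, 139 and 141 CPM in Patr1, against 79.7, 70.8 and 72.8 CPM in esgTS (log2 0.94 ± 0.08 SE, edgeR adjusted p = 2.28e-06). Updo, the uroporphyrinogen decarboxylase, had 67.8, 74.0 and 85.3 CPM in Patr1, against 56.0, 54.6 and 45.8 CPM in esgTS (log2 0.54 ± 0.12 SE, edgeR adjusted p = 0.00241). Alas, the enzyme of the first step, was lower (log2 -0.43 ± 0.13 SE, edgeR adjusted p = 0.0164).

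The ecdysteroid synthesis genes, several of which are P450 genes under other symbols, were close to absent, with 1 of 8 tested. This was shd, the mitochondrial P450 that makes 20-hydroxyecdysone from ecdysone, with 6.03, 4.43 and 4.83 CPM in Patr1 and 0.69, 0.99 and 1.14 CPM in esgTS, from 36 reads in Patr1 and 8 in esgTS (log2 2.37 ± 0.42 SE, edgeR adjusted p = 6.12e-04). It reached the filter level in the Patr1 libraries only, so it too was picked in part for being higher there. The others, nvd, sro, spo, spok, phm, dib and sad, had 0 to 29 reads per genotype.

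Of 7 tested regulators of P450 transcription, Hr96 and cnc were higher, Keap1 and Met were lower and 3 did not pass (median log2 0.16), near the 25.5% higher and 23.9% lower over all tested genes. Hr96, a xenobiotic-sensing nuclear receptor, had 80.9, 98.2 and 84.8 CPM in Patr1, against 56.4, 61.5 and 57.6 CPM in esgTS (log2 0.60 ± 0.10 SE, edgeR adjusted p = 4.51e-04). The Nrf2 homolog cnc had 917, 912 and 905 CPM in Patr1, against 681, 689 and 721 CPM in esgTS (log2 0.39 ± 0.08 SE, edgeR adjusted p = 0.00182).

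Marker genes of several cell types differed between the genotypes too. The counts here and below stand beside 25.5% higher and 23.9% lower over all tested genes, and most lists hold few tested genes. The enterocyte list, with 15 of 15 detected, had 12 of 13 tested genes higher and 1 lower (Myo31DF). It summed to 1734 to 1773 CPM in Patr1 and 909 to 990.0 CPM in esgTS. Its largest rise in CPM was that of bbg, at 564 CPM in Patr1 and 112.5 CPM in esgTS. Myo31DF stood at 335 CPM in Patr1 and 484 CPM in esgTS. The higher gene epsilonTry reached the filter level in all 3 libraries of Patr1 but not of esgTS. It was thus picked in part for being higher in Patr1. Of 8 progenitor genes, 4 were higher and 1 was lower, and the list summed to 5971 to 6979 CPM in Patr1 and 5374 to 5765 CPM in esgTS. The enteroendocrine list had 2 higher and 1 lower of 7, at 201 to 371 CPM in Patr1 and 332 to 380.2 CPM in esgTS. Its 2 higher genes, AstA and CCHa1, reached the filter level in all 3 libraries of Patr1 but not of esgTS. The visceral muscle list had 2 higher and 0 lower of 5, at 117 to 143 CPM in Patr1 and 39.2 to 43.1 CPM in esgTS. The muscle difference was carried by sls, at 46.2 CPM in Patr1 and 12.6 CPM in esgTS, and bt, at 61.5 CPM in Patr1 and 6.70 CPM in esgTS, while Mhc, up and Mlc2 overlapped between the genotypes. Enterocyte, progenitor and muscle sums were apart, and enteroendocrine sums overlapped.

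Fat body and Malpighian tubule, both known for P450 expression, left little or mixed marker signal. The fat body list had 0 of 1 called, at 14.6 to 15.3 CPM in Patr1 and 11.7 to 16.8 CPM in esgTS, with Lsp2 at 0 reads. The Malpighian tubule list had 2 higher and 1 lower of 3, at 113 to 139 CPM in Patr1 and 133 to 157 CPM in esgTS, with Uro at 2 reads in Patr1 and 2 in esgTS. Most of that sum was Picot, the lower gene, at 97.6 CPM in Patr1 and 131 CPM in esgTS. The higher genes were Irk1, at 20.1 CPM in Patr1 and 6.82 CPM in esgTS, and Alp4, at 6.57 CPM in Patr1 and 1.45 CPM in esgTS. The oenocyte list had both of its tested genes higher, FASN2 and FASN3, and summed to 33.4 to 34.2 CPM in Patr1 and 3.31 to 5.50 CPM in esgTS, with eloF at 0 reads. Alp4, FASN2 and FASN3 reached the filter level in all 3 libraries of Patr1 but not of esgTS. They were thus picked in part for being higher in Patr1.

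The hemocyte list had 1 higher and 2 lower of 4, at 292 to 331 CPM in Patr1 and 292 to 330.4 CPM in esgTS, with NimC1, He and eater at 0 reads. Its like sums hide members that moved apart: Col4a1, a basement membrane collagen, averaged 77.7 CPM in Patr1 and 0.83 CPM in esgTS, crq averaged 164 CPM in Patr1 and 214 CPM in esgTS, and srp averaged 57.0 CPM in Patr1 and 93.4 CPM in esgTS. The trachea, neuron and glia list had 1 higher (btl) and 2 lower (elav and nSyb) of 5. It summed to 196 to 217 CPM in Patr1 and 230 to 250.4 CPM in esgTS. Of these, nSyb reached the filter level in all 3 libraries of esgTS but not of Patr1. It was thus picked in part for being higher in esgTS. The germline and follicle list had its 1 tested gene, vas, higher, and the list summed to 17.4 to 24.1 CPM in Patr1 and 0.69 to 2.67 CPM in esgTS. Col4a1 and vas reached the filter level in all 3 libraries of Patr1 but not of esgTS, so they too were picked in part for being higher there. The part of any of these cells in the P450 differences was not tested.

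The authors' deposited table lists 54 of the 85 members, 7 of them higher and 14 lower at an adjusted p under 0.05, where 17.3% of all genes in it are higher and 16.4% lower, 33.7% in all. Of the 21 members called here, 18 are called in the same direction in the authors' deposited table. The 3 that are not are Cyp12a4, Cyp28d2 and Cyp49a1. Cyp12c1, Cyp28a5 and Cyp4s3, which missed the expression filter here, are called higher in the authors' deposited table.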

How the data were processed

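RNA-seq libraries of 6 sorted progenitor samples were grouped by the genotype in their titles. Tools listed in the submitters' processing notes are Subread 2.0.0 (featureCounts), STAR 2.7.3a, cutadapt 2.9, DESeq2 and SAMtools 1.10. Genome build, annotation and strand setting: not given in the sources used here. No coordinates are therefore printed. Per the file headers, the deposited tables hold raw read counts with gene lengths, and the authors' comparison: normalized counts (signal), log2 fold changes with standard errors, a Wald score and p-values. Only the counts were tested here. A row with no gene name, with 0.00226% to 0.00296% of Patr1 reads and at most 3.38e-05% of esgTS reads, was left out.

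Tests used edgeR 4.0.16 in R 4.3.3 (TMM factors, default expression filter by genotype, common biological coefficient of variation 8.47%). They were run on data simulated with that common coefficient for every gene, which leaves out spread that differs between genes. The standard error is the log2 change divided by the square root of the F statistic. DESeq2 1.42.0 was an alternative. RPKM is scaled CPM per kilobase of deposited length. Clans follow family number. Symbols, gene order and exon overlap (reported from 20%) came from RefSeq and Ensembl BDGP6 tables; all 85 members matched, 84 with equal length. Python 3.11.15, pandas 2.3.3, SciPy 1.17.1 and matplotlib 3.10.9 made tables and plots.

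Within a genotype, all pairs of libraries were further apart than counting error alone gives (chi-square over its degrees of freedom, 2.45 to 4.34). By rule, every tested member is named, with library values for the 6 smallest p-values per direction and clan and the 3 highest by RPKM; untested members are named from 3 reads in a library; of the electron partner, heme, ecdysteroid and regulator lists, called genes are named, with values for the 2 smallest p-values. Members and lists were chosen with earlier results of these data known. Kank, nsr, heix and Rab3-GEF, which overlap members, the marker genes given with values besides esg, and members under that read minimum were added after their values were seen.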

Additional observations from a re-analysis of the deposited data

How the results depend on the processing

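Of the 21 called members, 16 kept their call and direction in every alternative that tested them (Cyp12a5, Cyp6a22 and Cyp6a20 were not tested at 10 CPM); 5 (Cyp12a4, Cyp12e1, Cyp49a1, Cyp6a23 and Cyp28d2) lost it in 20 of 247 values over the 21 genes, and 0 reversed. With no expression filter 12 P450 genes were higher, 3 of them in the CYP4 clan, and the family's median log2 change was -0.22; more low genes enter there. With at least 10 CPM in 3 libraries, 3 P450 genes were higher, 2 in the CYP3 clan, with 1 higher and 1 lower in the mitochondrial clan, and the median was -0.78. DESeq2 gave 1 fall in the mitochondrial clan, 1 rise in the CYP4 clan and a median of -0.25. Leaving out 1 library gave 1 to 3 rises and 0 to 2 falls in the mitochondrial clan and medians of -0.49 to -0.30. Among uncalled genes, leaving out 1 library turned the sign of Cyp6d5 (-0.182 to 0.0597), Cyp6a2 (-0.0772 to 0.353), Cyp6u1 (-0.0041 to 0.363) and Cyp12b2 (-0.067 to 0.181). Without members that overlap another gene, an alternative chosen after seeing the data, 5 were higher and 13 lower. No pairing by replicate number was evident. Same-numbered libraries deviated together at 0.05, 0.20 and -0.04, and differently numbered ones at -0.30 to 0.21. With 3 libraries per genotype such values cannot exclude a pairing. The fit with the replicate block kept 6 P450 rises and 15 falls. Few reads per gene limit most members: 3 reads are 0.99 to 1.51 CPM.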
